A study of Mus musculus with 6 samples.

Results

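The SPARC family of matricellular genes was examined in RNA-seq data of embryonic mouse ovaries at E15.5. The 8 members were Sparc, Sparcl1, Smoc1, Smoc2, Spock1, Spock2, Spock3 and Fstl1, and they were taken by gene name as 28 of the 114412 transcripts in the count matrix and as 8 of its 35976 gene names. The family was chosen by the summed counts of Sparc, which differed between the groups, and the values of Sparc are therefore given as a description with no test. The 7 relatives were taken for their family membership and were tested. Both groups were C57BL/6J (C57Bl6j in the sample annotation). The control group comprised 3 pools of ovaries from embryos of pregnant mice given the vehicle, DMSO and water, by oral gavage. The PB group comprised 3 pools from mice given panobinostat (PB), an inhibitor of histone deacetylases, at 5 mg/kg from E6.5 to E15.5. The sample annotation gives this dose per day, whereas the animal methods give it every 2 days. The series description lists the control libraries, too, under exposed mice, whereas the treatment annotation and the library names separate the groups and were followed here. The sources also differ on the number of ovaries per pool, with 4 in the sample annotation and at least 8 in the RNA-seq methods. Each library is a mixture of all the cells of the ovary, so a larger number of cells that express a gene and more RNA per cell cannot be told apart.

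The libraries held between 97165644 and 125985399 counts. Levels are given in CPM, the counts of a gene relative to the TMM-scaled library total, and a count of 0 allows up to 3 counts, which is 0.0257 to 0.0319 CPM for a gene. Markers of pregranulosa cells, the somatic cells that support the germ cells, were present in every pool, with Foxl2 at 155 ± 10.1 CPM in control, against 154 ± 16.3 CPM in PB (SD, n = 3). The germ cell gene Ddx4 was at 114 ± 21.4 CPM in control, against 111 ± 29.2 CPM in PB. Libraries within a group differed in makeup. PB 2 had a summed level of 4 skeletal muscle markers of 413 CPM, against 20.6 and 57.1 CPM in PB 1 and PB 3, and 25.7, 116 and 63.0 CPM in control 1, 2 and 3. The 6 germ cell markers summed to 822, 484 and 877 CPM in PB 1, 2 and 3 and to 763, 567 and 754 CPM in control 1, 2 and 3. PB 2 and, to a lesser degree, control 2 were thus high in muscle markers and low in germ cell markers. The Sparc transcripts of PB 2 also differed from those of the other PB pools, and the family is therefore given pool by pool below.

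SPARC, also called osteonectin, is the founding member of a group of secreted proteins that bind calcium and the extracellular matrix through a follistatin-like domain and an extracellular calcium-binding domain. Such matricellular proteins do not build the matrix but tune how cells attach to it and how collagen fibres are laid down. SPARC binds fibrillar and basement membrane collagens. SPARCL1, or hevin, is its nearest relative. SMOC1 and SMOC2 are basement membrane proteins that modulate BMP signalling, SPOCK1, SPOCK2 and SPOCK3, the testicans, are proteoglycans, and FSTL1 is a secreted glycoprotein that binds BMPs.

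Sparc lies on the minus strand of chromosome 11 (mm10), and its 4 transcripts in the merged assembly span 55394159 to 55420258. NM_009242.5 and NM_001290817.1 are the known RefSeq transcripts. Both start at 55420080, have 10 exons, and differ by 3 bases in exon 3 (55407277-55407279), which are present in NM_009242.5. MSTRG.2499.4 and MSTRG.2499.1 are assembled transcripts that StringTie built from the reads of this study, and both have 11 exons. MSTRG.2499.4 starts 178 bases upstream of the RefSeq start and MSTRG.2499.1 starts 131 bases upstream. The 250 bases before the RefSeq start are shown because both assembled first exons lie there, apart from the last 2 bases of that of MSTRG.2499.4, with the exonic part of MSTRG.2499.4 in capitals. The sequence is from RefSeq on GRCm38 (chr11:55420081-55420330, minus strand).
Sparc upstream region: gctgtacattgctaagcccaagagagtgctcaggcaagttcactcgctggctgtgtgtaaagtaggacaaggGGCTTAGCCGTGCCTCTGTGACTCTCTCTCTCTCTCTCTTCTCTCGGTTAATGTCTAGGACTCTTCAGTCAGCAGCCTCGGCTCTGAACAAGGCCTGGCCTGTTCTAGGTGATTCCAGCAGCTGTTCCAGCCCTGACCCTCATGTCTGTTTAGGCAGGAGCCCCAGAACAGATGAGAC

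The assembled transcripts place an intron where the RefSeq transcripts have their first exon of 293 bases. The first exon of MSTRG.2499.4 (180 bases) is followed by an intron of 223 bases (55419856-55420078), and that of MSTRG.2499.1 (61 bases) by an intron of 295 bases (55419856-55420150). Both introns end at the same acceptor and leave a second exon of 68 bases, whose downstream end is that of the RefSeq first exon. Both introns start with GT and end with AG, as most introns do. The splice sites are given below from the RefSeq and GENCODE sequences of GRCm38, minus strand, with exonic bases in capitals.
MSTRG.2499.4 donor, chr11:55420069-55420088: GATGAGACAGgtggggccag
MSTRG.2499.1 donor, chr11:55420141-55420160: CCTGTTCTAGgtgattccag
Shared acceptor, chr11:55419846-55419865: attcctgcagCCCTTCAGAC

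The GENCODE annotation (release M21) lists 9 transcripts of Sparc, and 2 of them, Sparc-207 and Sparc-209, contain the first junction of MSTRG.2499.4. In both, the annotated start codon lies in this first exon (55420085-55420087), and the reading frame has 332 codons. In Sparc-201 the start codon lies further downstream (55409982-55409984), and the reading frame has 302 codons. All 3 share the stop codon at 55395585-55395587. MSTRG.2499.4 also has a last exon of 1112 bases, which is 343 bases shorter than that of the RefSeq transcripts, and 7 exons have the same coordinates in all 4 transcripts.

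**Figure D1:**
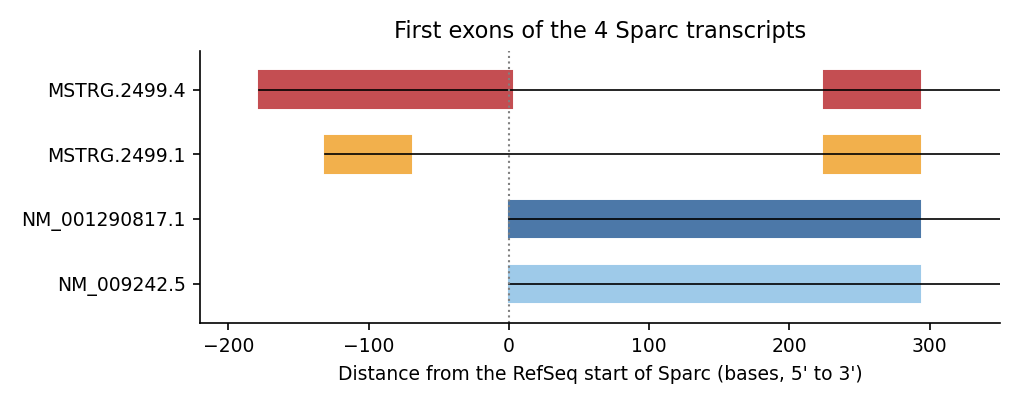
Map of the first exons of the 4 Sparc transcripts, with the distance from the RefSeq start in bases on the x axis and 1 transcript per row; boxes are exons and lines are introns. The first exons of MSTRG.2499.4 (180 bases) and MSTRG.2499.1 (61 bases) start 178 and 131 bases upstream, and their second exon of 68 bases ends where the RefSeq first exon ends.

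Sparc had 53873, 63185 and 51327 counts in control 1, 2 and 3 and 105490, 114468 and 132981 counts in PB 1, 2 and 3. In CPM these were 548, 542 and 545 in control and 1064, 1120 and 1144 in PB. Every PB pool was above every control pool, and the spread among the control pools (SD 3.22 CPM) was smaller than among the PB pools (SD 41.2 CPM). The ratio of the means was 2.03, and the log2 fold change was 1.02 (SE 0.048) in all pools, 1.02 (SE 0.050) without PB 2 and 1.02 (SE 0.056) without control 2. With counts divided by transcript length and scaled to an equal total in each pool (TPM), the level of Sparc was 307, 282 and 315 in control and 756, 650 and 809 TPM in PB. The ratio of these means was 2.45. The same ratio over all tested genes had a median of 1.08 on this scale, and relative to it Sparc was 2.27-fold higher. Values per length also depend on the transcript to which the counts are assigned. MSTRG.2499.4 has 2253 exonic bases, against 2641 in NM_009242.5 and 2638 in NM_001290817.1, so a count on it weighs more in TPM.

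The counts of Sparc fell on different transcripts in the 2 groups. In control 1, 2 and 3, the 2 RefSeq transcripts held nearly all of them, with 27545, 41164 and 26587 counts for NM_001290817.1 and 26316, 22018 and 24717 counts for NM_009242.5. MSTRG.2499.4 had 1 count in each control pool, 97720 counts in PB 1, 0 in PB 2 and 125682 in PB 3. It was thus the main transcript of Sparc in PB 1 (92.6% of the gene's counts) and PB 3 (94.5%) but had no counts in PB 2.

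PB 2 carried the other assembled transcript. MSTRG.2499.1 had 11, 2 and 22 counts in the control pools, 35313 counts in PB 2 (30.8% of the gene's counts) and 0 in PB 1 and PB 3. The RefSeq transcripts of PB 2, with 40462 counts for NM_001290817.1 and 38693 for NM_009242.5, were as high as in control or higher. In PB 1 and PB 3 they were lower, at 5639 and 5373 counts for NM_001290817.1 and at 2131 and 1926 counts for NM_009242.5. Together the 2 assembled transcripts held at most 0.0448% of the counts of Sparc in a control pool and 92.6%, 30.8% and 94.5% in PB 1, 2 and 3.

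Both this share and the sum over the gene were higher in every PB pool than in every control pool. Among the PB pools, PB 2 had the lowest share. Its gene sum lay between those of PB 1 and PB 3 in CPM but was the lowest in TPM (650, against 756 and 809 TPM in PB 1 and PB 3). The RefSeq transcripts alone summed to 548, 542 and 545 CPM in control and to 78.4, 775 and 62.8 CPM in PB. On this sum, PB 2 was above the control pools and PB 1 and PB 3 were below them, with a log2 fold change of -0.85 (SE 0.98). The direction of Sparc therefore rested on whether the assembled transcripts were counted. Reads that fit several transcripts of a locus are shared out between them by StringTie, and the part of this step in the gene sum was not tested. None of the 4 transcripts had an assigned p-value here, because their values chose the family. MSTRG.2499.4 was left out of the transcript fit by the filter on low counts, since it had counts in only 2 PB pools.

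**Figure D2:**
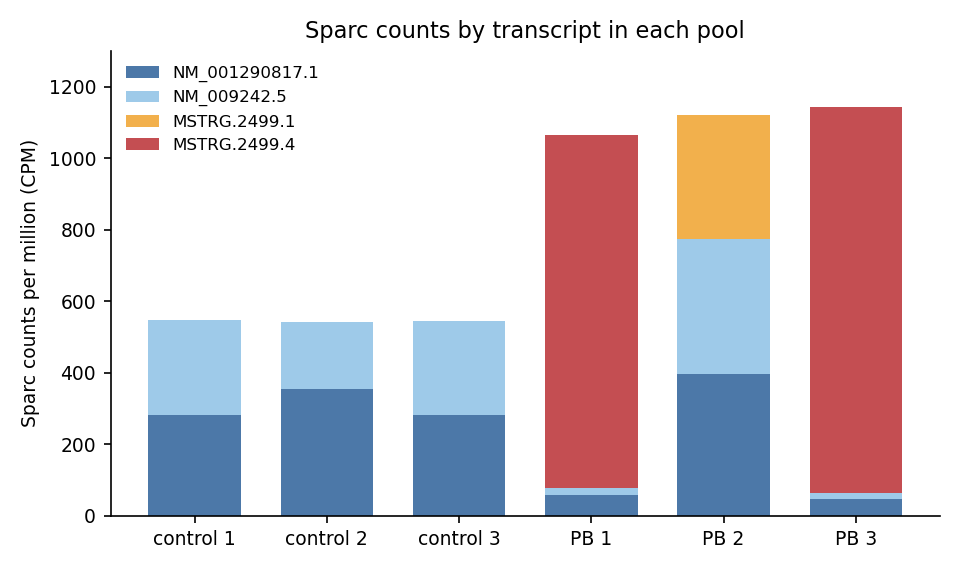
Stacked bars of the Sparc counts in CPM (y axis) in each of the 6 pools (x axis), coloured by transcript. The control bars reach 542 to 548 CPM and consist of the RefSeq transcripts, whereas MSTRG.2499.4 fills 92.6% and 94.5% of the bars of PB 1 and PB 3 and MSTRG.2499.1 fills 30.8% of that of PB 2.

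To see how unusual such a change of transcripts was, the share of counts in assembled transcripts was computed for all 19437 tested genes. Taken over the summed counts of each group, it moved by at least 50 percentage points in 49 genes (0.252% of the tested genes), towards a higher share in PB in 27 of them and a lower share in 22. The median size of the log2 fold change of the gene sum was 0.19 over the 49 genes, against 0.100 over all tested genes. For Sparc the share moved from 0.0226% to 73.3%. In the 9 genes with a move of at least 70 points, Sparc included, the median size was 1.02, which is the value of Sparc itself. Of the other 8, Man2a2, Ids, Rffl and Gm21596 had log2 fold changes of -0.054, 0.025, -0.22 and -0.19 at 24.3 to 108 CPM. The remaining 4 were Pla2g3, Mir8098, 5033421B08Rik and a gene whose name had been turned into a date. Their log2 fold changes were much further from 0, from -5.64 to 4.96, at no more than 15.7 CPM in either group. None of these 4 was called. Of the 9 genes 1 was called, where 0.0154% of all tested genes were, and this was Sparc, which chose the family. Moves of this size in the share were thus seen with log2 fold changes both near 0 and far from it. These 8 genes were looked up after their values were seen.

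Beside its family, Sparc was the most abundant member per length in both groups. In control its level of 302 ± 17.1 TPM was followed by Fstl1 at 218 ± 17.0 TPM, Sparcl1 at 113 ± 7.69 TPM and Smoc1 at 46.0 ± 3.74 TPM. Smoc2 (9.96 ± 4.25 TPM) and Spock2 (8.72 ± 1.03 TPM) were the next pair and overlapped between pools. Spock3 (0.526 ± 0.231 TPM) and Spock1 (0.310 ± 0.0849 TPM) were the lowest and overlapped as well. The order was the same in PB, where Sparc was at 738 ± 80.6 TPM and Fstl1 at 235 ± 13.4 TPM. By this level, Sparc was number 257 of the 19437 tested genes in control and number 122 in PB, while Fstl1 was number 362 and 348 and Sparcl1 number 853 and 1000.

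Of the 8 gene sums, only that of Sparc was called, where 0.0154% of all tested genes were called, 0.0103% as higher in PB and 0.00514% as lower. Since Sparc chose the family, nothing is read from this count. The other 7 members had log2 fold changes below 0, although Smoc2 was at 0.00058 with length-corrected counts and Fstl1 at 0.00074 with counts summed by StringTie locus. On the TPM scale 4 of the 7 had a higher mean in PB, with Fstl1 level with the median ratio of all tested genes (both 1.08) and the other 6 below it. Their FDR values in edgeR's quasi-likelihood test, adjusted over all genes, were between 0.888 and 1.00. The median over the 8 members was -0.093, and over all tested genes it was 0.0020, with 50.7% above 0. The members without Sparc summed to 901, 935 and 981 CPM in control and to 900, 893 and 891 CPM in PB. With Sparc they summed to 1450, 1477 and 1526 CPM in control and to 1963, 2013 and 2034 CPM in PB, and the share of Sparc in this sum was 35.7% to 37.8% in control and 54.2% to 56.2% in PB.

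**Figure D3:**
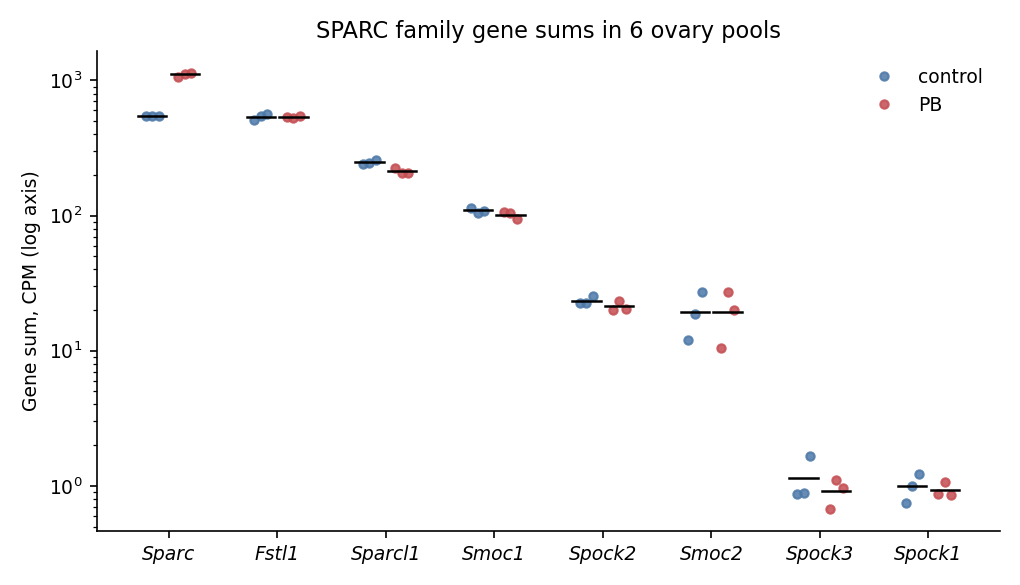
Gene sums of the 8 members in CPM (y axis, log scale), with 1 point per pool (blue, control; red, PB) and a line at each mean of 3 pools. The PB points of Sparc (1064 to 1144 CPM) lie above its control points (542 to 548 CPM), and those of Sparcl1 lie slightly below its control points; the points of the other 6 members overlap.

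Sparcl1, on chromosome 5 (104079108-104114088, minus strand), encodes hevin, which like SPARC binds collagen and which is known in the vessel wall and at synapses. It was at 240, 245 and 256 CPM in control and at 224, 208 and 205 CPM in PB. All PB pools were below all control pools, as was the case in one direction or the other for 10.7% of all tested genes. The log2 fold change was -0.22 (SE 0.050, 95% interval -0.34 to -0.097), and the difference did not pass the test (edgeR, FDR = 0.888). Its unadjusted p in edgeR was 0.0040, the only one under 0.05 among the relatives, and 4.47% of all tested genes had an unadjusted p under 0.05. Per length, the pools of Sparcl1 overlapped, with 113 ± 7.69 TPM in control and 107 ± 7.58 TPM in PB. It was the only relative of Sparc whose pools did not overlap in CPM.

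Smoc1 and Smoc2 encode the modular calcium-binding proteins that act as BMP antagonists. Smoc1, on chromosome 12 (81026808-81186414), was at 114, 105 and 109 CPM in control and at 106, 105 and 94.1 CPM in PB, with a log2 fold change of -0.10 (SE 0.063, 95% interval -0.25 to 0.047). Smoc2, on chromosome 17 (14279490-14404790), was at 12.001, 18.6 and 27.3 CPM in control and at 10.5, 27.2 and 20.2 CPM in PB. Its pools varied more than 2-fold within each group, and the 95% interval of its log2 fold change of -0.0014 reached from -0.97 to 0.97. The interval of Smoc2 thus spanned nearly 2-fold in both directions, whereas that of Smoc1 was narrow.

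The testicans are proteoglycans of the matrix, and some of them inhibit proteases. Spock2 (chromosome 10, 60106257-60135198) was the most abundant of the 3, at 22.4, 22.5 and 25.3 CPM in control and at 20.1, 23.5 and 20.4 CPM in PB, with a log2 fold change of -0.13 (SE 0.088, 95% interval -0.34 to 0.076). Spock1 (chromosome 13, 57421195-57908332, minus strand) had 73, 116 and 116 counts in control and 86, 110 and 100 in PB. Spock3 (chromosome 8, 62951091-63357101) had 86, 104 and 157 counts in control and 67, 112 and 113 in PB. Both were near 1 CPM in all pools, and the 95% intervals of their log2 fold changes were -0.66 to 0.50 and -1.12 to 0.47.

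Fstl1, on chromosome 16 (37777055-37836516), encodes a follistatin-like glycoprotein that binds BMP4 and the receptor DIP2A. It was the member nearest to Sparc in abundance and had the log2 fold change nearest to 0 in the main fit. Its pools were at 512, 542 and 561 CPM in control and at 537, 527 and 549 CPM in PB, with a log2 fold change of -0.00077 (SE 0.050, 95% interval -0.12 to 0.12). In CPM, Fstl1 and Sparc were thus alike in control (538 ± 24.8 and 545 ± 3.22 CPM), and in PB Sparc was at 1109 ± 41.2 CPM beside 538 ± 10.8 CPM for Fstl1. As this comparison is between genes it also depends on their lengths, for which the TPM values above account.

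The transcripts of the relatives were examined in the same way, and none was called in the fit over 51227 transcripts, where 0.0332% were called. The pools of a group varied far more for transcripts (biological coefficient of variation 98.4%) than for gene sums (21.0%). All the tested transcripts of the relatives had an FDR of 1.00 in edgeR. The Sparc transcripts apart from MSTRG.2499.4 were in the same fit but are given no p-value here. Both Smoc1 and Smoc2 have a pair of transcripts that differ by a segment of 33 bases at the 5′ end of exon 6 of 13. The Smoc2 pair also differs by 16 bases in exon 1 and 19 bases in exon 13, so its shares do not measure the segment alone. Both segments are shown because they sit at the same place in the 2 genes, with the sequences of GENCODE on GRCm38, plus strand.
Smoc1 segment, chr12:81150619-81150651: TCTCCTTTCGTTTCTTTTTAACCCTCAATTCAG
Smoc2 segment, chr17:14347174-14347206: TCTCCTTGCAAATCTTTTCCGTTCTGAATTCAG
Of the 33 bases, 23 are identical.

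For Smoc1, the transcript with this segment, NM_001146217.1, held 12.9%, 16.1% and 17.9% of the counts in control, against 16.2%, 22.6% and 11.5% in PB. The groups overlapped, and NM_022316.2, which lacks the segment, held most of the counts in every pool. For Smoc2, the transcript with the segment, XM_006524777.3, held 15.1%, 0.507% and 81.3% of the counts in control, against 37.9%, 10.8% and 0.213% in PB. The pools of both groups thus ranged from almost none to a large part of the gene's counts. In control 3 it had 2092 counts and in PB 3 it had 5.

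The 2 main transcripts of Sparcl1 differ by an exon of 178 bases, exon 2 of XM_006534768.1 (chromosome 5, 104102240-104102417), which NM_010097.4 lacks. XM_006534768.1 had 15621, 6731 and 15587 counts in control and 6761, 4680 and 4428 in PB. Control 2 was alike to PB 1, with 23.5% of the gene's counts against 30.4%, whereas control 1 and control 3 had 66.3% and 64.6%. The log2 fold change was -1.33 (SE 0.47) and did not pass the test (edgeR, FDR = 1.00). It was 1 of the 12 tested transcripts of the relatives and the only one among them with an unadjusted p under 0.05, which 3.56% of all tested transcripts had. Its control and PB pools overlapped only through control 2 and PB 1, and 9.95% of all tested transcripts had no overlap between the groups. NM_010097.4 had 7522, 21376 and 8103 counts in control and 14886, 15396 and 19445 in PB, with a log2 fold change of 0.44 (SE 0.37).

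Fstl1 was the only relative with an assembled transcript. MSTRG.7155.1 differs from NM_008047.5 by a gap of 20 bases (chromosome 16, 37835961-37835980) in the last exon, downstream of the stop codon that ends at 37833926. The gap starts with GT and ends with AG, and the 10 bases around its one edge are repeated at the other. No GENCODE transcript of Fstl1 has this gap. MSTRG.7155.1 held 25.6%, 35.2% and 36.5% of the counts of Fstl1 in control, against 40.7%, 41.8% and 30.2% in PB, so that it was present in both groups at like shares, unlike the assembled transcripts of Sparc.

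The testicans were each measured on 1 transcript. NM_009262.3 held at least 94.2% of the counts of Spock1 in every pool, NM_052994.2 at least 97.2% of those of Spock2, and NM_023689.3 all of those of Spock3. Of the 28 transcripts of the family, 9 had 0 counts in every pool, and all 9 belonged to Spock1, Spock2 and Spock3.

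**Figure D4:**
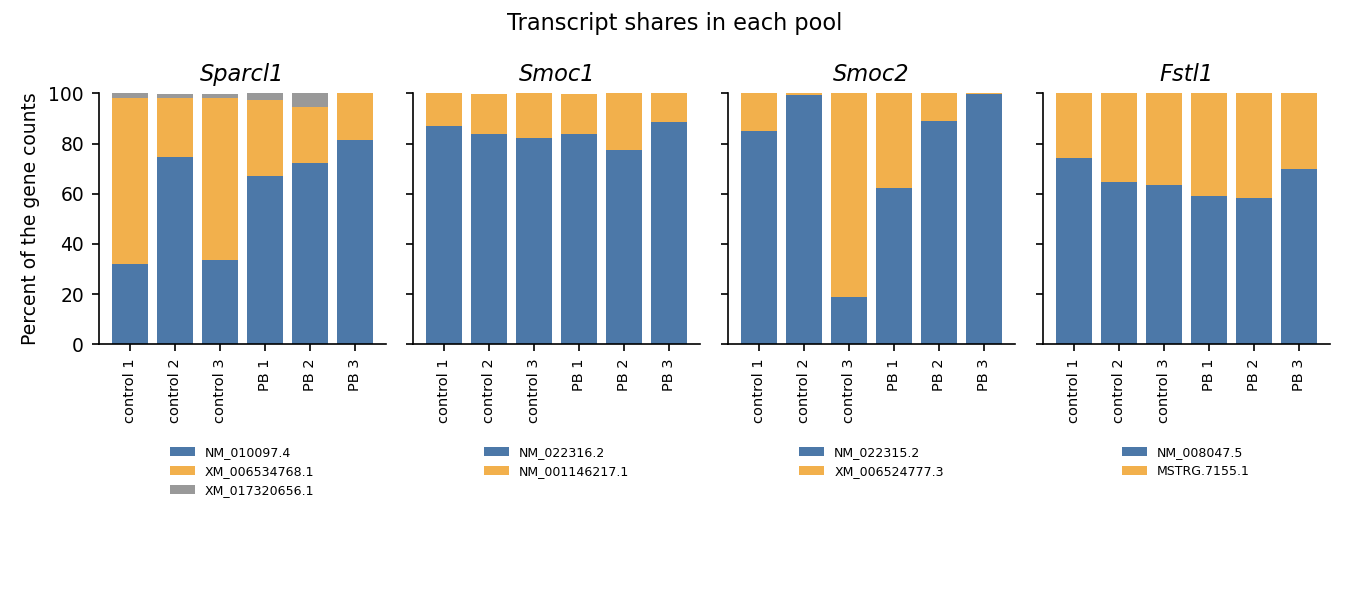
Percent of the gene's counts (y axis) held by each transcript with a mean share above 1% in each of the 6 pools (x axis) for Sparcl1, Smoc1, Smoc2 and Fstl1. The share of XM_006524777.3 of Smoc2 reaches from 0.213% to 81.3%, that of XM_006534768.1 of Sparcl1 is 66.3% and 64.6% in control 1 and 3 but 23.5% in control 2, and the shares of Smoc1 and Fstl1 overlap between the groups.

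A promoter sequence, 250 bases before to 50 bases after the RefSeq start, was found for 5 of the 8 members, namely Sparc, Fstl1, Spock1, Spock2 and Spock3. In these 300 bases, the promoter of Sparc had a GC content of 55.3%, close to the median of all promoters (52.7%). It had 4 CpG dinucleotides, which is below the median of 7. The promoters of Fstl1 and Spock1 were richer, with 66.7% and 21 CpG and 64.0% and 29 CpG. On both strands, the GC box GGGCGG was found in Fstl1 and Spock1 only, and it is present in 35.66% of all promoters. TATAAA and CCAAT were found in none of the 5, and they are present in 13.62% and 37.41% of all promoters.

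The genes linked to the family by function were then counted in 6 lists, of follistatin-domain relatives, collagens that SPARC binds, SPARC receptors and scavengers, other matricellular genes, BMP and DIP2A partners of SMOC and FSTL1, and matrix proteases and their inhibitors around the testicans. Of 59 genes, 57 were tested and 0 were called, also with no limit on the fold change. In CPM 20 of the 57 were above 0 and 37 below. On the TPM scale, on which the median of all tested genes was itself 1.08-fold higher in PB, 49 of the 57 had a higher mean in PB, and 19 were above that median. An unadjusted p under 0.05 in edgeR was reached by 4 genes, Tnc, Id1, Mmp14 and Mmp9 (7.02%, against 4.47% of all tested genes), and the smallest FDR was 0.888.

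The 7 collagens had log2 fold changes between -0.10 and 0.00 in CPM, with a median of -0.073, whereas in TPM all 7 had a higher mean in PB and 0 were above the median ratio of all genes. Col3a1, a fibrillar collagen, was at 2426 ± 120 CPM in control, against 2320 ± 99.4 CPM in PB, and Col5a1, which regulates fibril diameter, at 521 ± 34.9 and 485 ± 36.9 CPM. The 5 receptors and scavengers had a median of -0.064. Among them Itgb1, the beta subunit of the collagen and fibronectin receptors, was at 457 ± 3.93 CPM in control, against 437 ± 1.74 CPM in PB.

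Among the 17 tested matricellular genes of other families, 11 were above 0 and 6 below, with a median of 0.0061. Tgfbi, an adhesion protein, was at 288 ± 3.88 CPM in control, against 271 ± 12.004 CPM in PB. Tnc, encoding tenascin-C, was at 51.1 ± 10.4 CPM in control, against 69.1 ± 10.5 CPM in PB, with a log2 fold change of 0.44 (SE 0.17, edgeR FDR = 0.888). The log2 fold change furthest from 0 in this list was that of Tnn, encoding tenascin-N, at 1.09 (SE 0.70, edgeR FDR = 0.888), with 0.626 ± 0.252 CPM in control and 1.33 ± 1.27 CPM in PB. The 6 tested follistatin-domain relatives had a median of -0.037, with Fst, the activin inhibitor of pregranulosa cells, at 159 ± 4.44 and 157 ± 13.04 CPM and Agrn, encoding agrin, at 234 ± 14.7 and 218 ± 9.48 CPM.

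On the BMP side, 7 of 12 genes were above 0, with a median of 0.042. Id3 and Id1 are transcriptional targets of BMP signalling. Id3 was at 119 ± 2.86 CPM in control, against 118 ± 3.19 CPM in PB, and Id1 at 54.2 ± 3.49 and 48.0 ± 0.513 CPM (log2 fold change -0.18, edgeR FDR = 0.888). The 10 proteases and inhibitors were all below 0 in CPM, with a median of -0.044, but in TPM 8 of the 10 had a higher mean in PB and 0 were above the median ratio of all genes. Mmp14, a membrane-bound activator of MMP2, was at 429 ± 8.03 CPM in control, against 392 ± 13.1 CPM in PB (log2 fold change -0.13, edgeR FDR = 0.888). Mmp9, a gelatinase, was at 2.46 ± 1.35 and 1.15 ± 0.256 CPM (log2 fold change -1.10, edgeR FDR = 0.888).

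**Figure D5:**
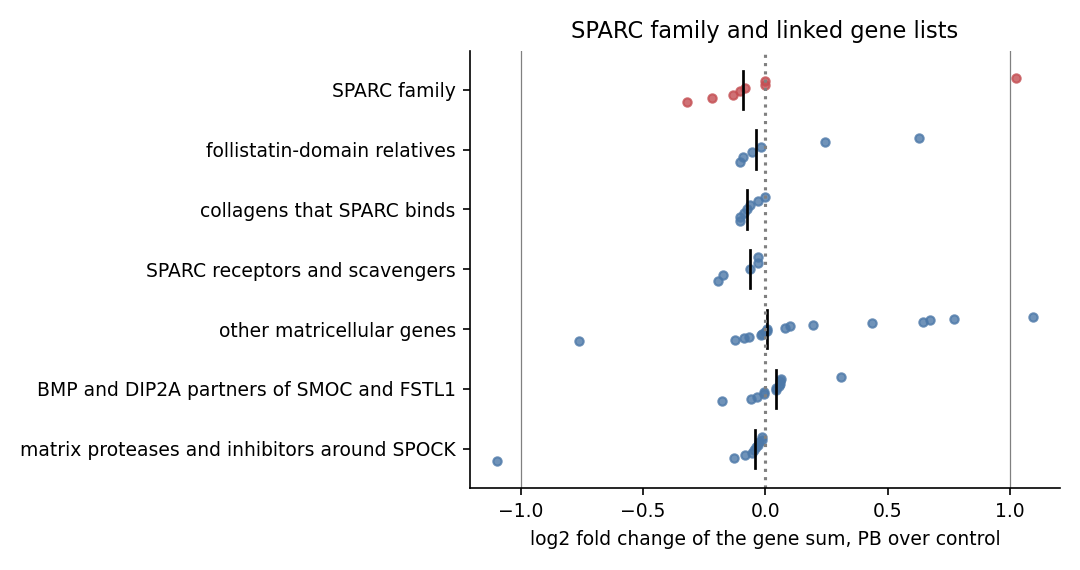
Log2 fold change of the gene sum, PB over control (x axis), for the SPARC family (red) and the 6 linked lists (blue), with 1 point per tested gene and a black bar at each median; grey lines mark a 2-fold change. Sparc lies at 1.02, the medians of the linked lists lie between -0.073 and 0.042, and single linked genes reach from -1.10 (Mmp9) to 1.09 (Tnn).

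The 5 tested genes whose pattern over the 6 pools was most like that of Sparc were found by the Euclidean distance of their centred log2 CPM. Npc2, a carrier of cholesterol in the lysosome, was nearest (distance 0.241), with 64.7, 64.1 and 66.2 CPM in control and 150, 153 and 146 CPM in PB. Spata2 (distance 0.406), an adaptor in TNF receptor signalling, was at 21.3, 21.3 and 22.6 CPM in control and at 36.6, 36.4 and 34.3 CPM in PB. Cend1 (distance 0.373), a gene of neuronal differentiation, and the predicted genes Gm40929 (0.341) and Gm41109 (0.414) were below 1 CPM in every pool. In none of these did assembled transcripts take over as in Sparc, and their share was 6.60% in control and 5.31% in PB for Npc2 and 0% for the other 4.

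Markers of other cell types that express Sparc are given beside these values. In control and PB respectively, the markers summed to 565 to 620 and 569 to 608 CPM for interstitial cells, 292 to 328 and 284 to 337 CPM for perivascular cells, and 341 to 374 and 323 to 346 CPM for endothelial cells. Those of osteoblasts, the bone-forming cells from which SPARC has its name osteonectin, summed to 22.8 to 35.6 and 23.9 to 29.8 CPM, and Bglap, which defines them, was at or below 0.0305 CPM in every pool. The ranges of the 2 groups overlapped in each of these lists, and 0 of their 20 tested genes were called, where 0.0154% of all tested genes were; Bglap was not tested. The skeletal muscle markers were above the control range only in PB 2, and Sparc was above its control range in all 3 PB pools. Whether the makeup of the pools has a part in the level of Sparc was not tested.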

How the data were processed

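Strand-specific libraries of polyA RNA from 3 control and 3 PB pools had been made by the authors and sequenced in paired-end mode. The authors demultiplexed the reads with bcl2fastq 2.17.1.14, aligned them to mm10 with HISAT2 2.1.0, built a merged transcriptome on RefSeq with StringTie 1.3.5, and deposited the raw counts per transcript that prepDE derives from coverage, without normalization. StringTie shares out the reads of a locus between overlapping transcripts, and a transcript's count depends on this step. From the results of their own comparison with DESeq2 1.30.0 (fold changes, p-values and 6 columns of normalized values), only the gene names and class codes were used. Groups were taken from the sample annotation. The pools are described as biological replicates.

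Counts were summed by gene name. The 1490 transcripts without one (3.05% to 4.49% of the counts of a pool) were left out of the sums. No batch is named. The groups were tested by the quasi-likelihood method of edgeR 4.0.16 (R 4.3.3, limma 3.58.1, data.table version 1.17.8) after TMM scaling, and filterByExpr was run at 10 counts minimum and 15 in total. P-values were adjusted by Benjamini-Hochberg over all 19437 genes or 51227 transcripts, and calls required an FDR of at most 0.05 and a 2-fold or larger change. The SE of a log2 fold change was computed as its size over the root of F. TPM were counts divided by exon length and scaled to an equal total in each pool. Limits from counts of 0 cover counting error only. Transcripts of other genes that overlap a member had at most 11 counts in any pool. DESeq2 1.42.0 was used as an alternative.

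The members, the linked lists, the markers and the tests were chosen with earlier results of these data known. Genes named are the members, all Sparc transcripts, the other members' transcripts with at least 10% of the counts of their gene in a group, the most abundant gene and the gene with the smallest p-value of each linked list, and the 5 genes nearest to Sparc. The smaller transcripts of the testicans, the markers, Mmp9, Tnn and the genes with a large move of the assembled share were named beyond this rule. Alternatives were other size factors, DESeq2's Wald test, leaving out the filter, a stricter filter of 10 counts in all 3 pools of a group, the replicate number as a block, RefSeq transcripts only, sums by StringTie locus, length-corrected sums, no limit on the fold change for the linked lists, and leaving out each pool. No protein sequence was used here.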

Additional observations from a re-analysis of the deposited data

How the results depend on the processing

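Over all gene sums, 3 genes were called. DESeq2's Wald test gave 11, RefSeq transcripts alone 8, the replicate block 0, and leaving out 1 pool 3 to 9, with the highest count without PB 2. Of the 8 members 1 was called, and 0 with the replicate block and with RefSeq transcripts alone, where the log2 fold change of Sparc was -0.85. Leaving out each pool left 1 called member, and Sparc between 1.00 and 1.05. Length correction gave 1.18. Over all transcripts 17 were called, against 1169 with DESeq2's Wald test, 39 with the stricter filter, 0 with the replicate block and 0 to 19 with 1 pool left out (0 without control 1, 1 without control 3, 2 without PB 1, 9 without PB 3). Among the members' transcripts 0 were called, in a fit from which the filter had removed MSTRG.2499.4. DESeq2's Wald test and the fit without PB 2 kept MSTRG.2499.4 and gave 1, this transcript. The fit with no filter and those without 1 control pool kept it too and gave 0. Nothing is read from these calls, since its counts chose the family. The correlations of the deviations of same-numbered pools were 0.0933, 0.147 and -0.018 for replicates 1, 2 and 3. Such correlations cannot decide whether the replicate numbers pair the pools. The cause of the differences between these settings was not tested. In 4 relatives of Sparc that did not pass the test the sign changed. Smoc2 was at 0.00058 after length correction and between -0.33 (without PB 2) and 0.33 (without control 3) with 1 pool left out, with 0.29 without PB 1. Leaving out 1 pool gave -0.25 to 0.097 for Spock1 and -0.48 to 0.044 for Spock3, in both cases from without control 1 to without control 3, and -0.037 to 0.025 for Fstl1. Fstl1 was at 6.00e-05 with the replicate block, 0.00074 by StringTie locus, 0.0013 without control 2, 0.025 without control 3 and 0.013 without PB 2. The other 140 recomputed values kept their direction or, for counts, stayed within 1.5 times, which does not show that the same genes were called. At this depth Spock1 and Spock3, with 67 to 157 counts per pool, had the least precise values beside Smoc2.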
